A study of Mus musculus with 6 samples.

Results

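The MCM and GINS genes encode the moving parts of the replicative DNA helicase. The 10 genes were matched by symbol among the 55353 genes of the deposited tables, 6 for the MCM2-7 ring (Mcm2, Mcm3, Mcm4, Mcm5, Mcm6 and Mcm7) and 4 for GINS (Gins1, Gins2, Gins3 and Gins4), and they hold 45 of the 142647 listed isoforms. RNA came from whole testes of mice at postnatal day 14, from 3 mutants with a conditional knockout of Rnu11 (Rnu11-cKO) and from 3 controls, whose alleles the labels do not detail. Rnu11 is the gene of U11, the small nuclear RNA with which the minor spliceosome recognises the start of a rare class of introns. The Cre line, and so the cells that lose the gene, is not given in the sources used here. Each library was rRNA-depleted, stranded total RNA and gave TPM values, which are corrected for transcript length and scaled to the same total in every library. They keep no record of sequencing depth, so how many reads lie behind a value is unknown.

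MCM proteins are loaded onto replication origins as double rings during G1, a step called licensing. In S phase the kinase of Cdc7 and Dbf4 phosphorylates the rings, and Cdc45 and GINS join each ring to form the active helicase, called CMG, that unwinds DNA ahead of the polymerases. In the postnatal testis the dividing cells include mitotic spermatogonia and preleptotene spermatocytes, which pass through the last S phase before meiosis.

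All 6 libraries expressed all 10 genes, and Rnu11, the deleted gene, stood at 196, 393 and 203 TPM in mutants, against 614, 576 and 550.3 TPM in controls. Its log2 difference was −1.21 (limma, Benjamini-Hochberg adjusted p = 0.29) and it passed only without mutant replicate 2 (adjusted p = 0.039). Between 30113 and 34510 genes per library were above 0. The tissue markers of a day 14 testis were present: 15 of 15 meiotic prophase genes and 16 of 16 Sertoli cell genes passed the filter of a mean of 1 TPM, while 6 spermatid genes together summed to 1.33 to 2.63 TPM in mutants and 2.07 to 2.63 TPM in controls. Control replicate 2 stood apart from the other controls in several marker lists. Its 9 pachytene genes summed to 51.0 TPM, near the 46.8, 53.5 and 67.8 TPM of mutants and under the 131 and 122 TPM of controls 1 and 3. Its 8 Leydig cell genes summed to 284 TPM, against 317, 449 and 295 TPM in mutants and 160 and 180.2 TPM in controls 1 and 3. Its 6 macrophage genes summed to 45.1 TPM, against 51.8, 58.1 and 40.3 TPM in mutants and 34.5 and 28.3 TPM in controls 1 and 3. Its meiotic prophase genes summed to 484 TPM, above all mutants and under the 586 and 595 TPM of controls 1 and 3.

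No MCM or GINS gene passed the test, and 9 of the 10 were lower in mutants by a small margin. On the scale of log2(TPM + 1), their differences of mutants minus controls ran from −0.45 for Gins1 to 0.08 for Gins4, with a median of −0.19. The same test over all 17959 genes that averaged 1 TPM or more gave a median of 0.09 and had 33.6% of genes below 0. It called 5 genes, or 0.0278%, at an adjusted p under 0.05. None of the 10 was called (limma, adjusted p of 0.29 to 0.88), and 1 of them, Gins1, had an unadjusted p under 0.05, against 3.98% of all genes that were lower at that level. In 4 of the 10 genes (Mcm3, Mcm7, Gins1 and Gins3) every mutant lay below every control, and in none did every mutant lie above. Among all genes, 5.77% had every mutant below and 14.5% every mutant above.

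The scaling of the libraries bears on these values, because TPM divides a library among all of its RNA. Protein-coding genes took 29.3%, 31.0% and 26.6% of the TPM in mutants, against 25.3%, 27.4% and 26.0% in controls. After scaling by the median ratio over genes, or to the total of protein-coding genes of the nuclear genome, the median of all genes moved to −0.00 and −0.03. The members then had medians of −0.30 and −0.32, 10 of 10 were lower under both scalings, and the same 4 genes were free of overlap. The backgrounds moved as well: 50.6% and 54.5% of all genes were below 0, and 11.3% and 13.1% had every mutant below every control. Under each scaling 5 of the 10 had an unadjusted p under 0.05, against 8.47% and 9.87% of all genes in that direction, and again none was called.

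**Figure D1:**
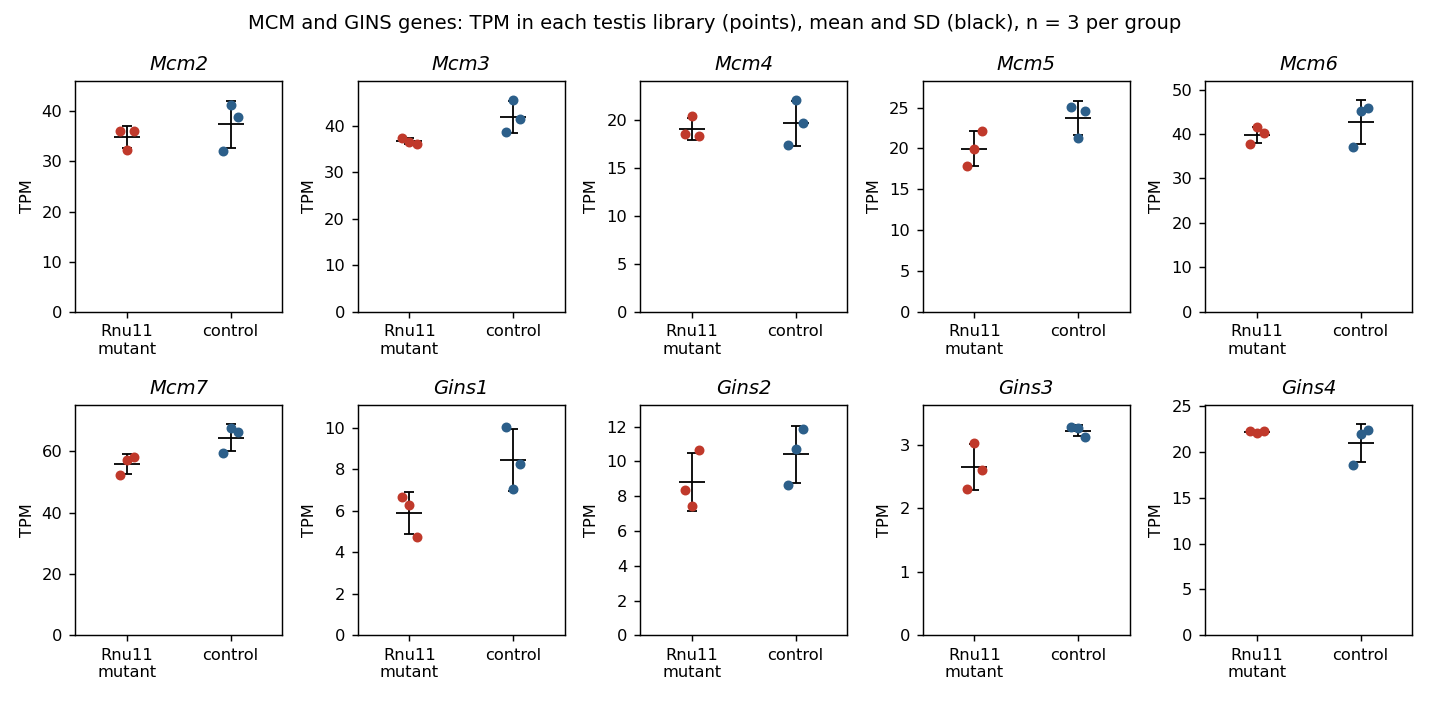
TPM of the 6 MCM and 4 GINS genes in each testis library, with mutants in red on the left, controls in blue on the right, and black marks for the mean and SD (n = 3 per group). The groups do not overlap in Mcm3, Mcm7, Gins1 and Gins3, and in Gins4 the 3 mutants lie within 22.1 and 22.2 TPM.

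Within the ring, Mcm7 and Mcm3 separated the groups. Mcm7 forms with Mcm4 and Mcm6 a subcomplex that unwinds DNA by itself in vitro. Mcm7 (ENSMUSG00000029730.16, GRCm38 chr5:138164583-138172422, minus strand) stood at 52.2, 57.2 and 58.0 TPM in mutants, against 59.6, 67.7 and 66.1 TPM in controls. Its highest mutant was under its lowest control, and the log2 difference was −0.20 (SE 0.09, limma adjusted p = 0.33), or a mean 13.4% lower. Mcm3 pairs with Mcm5 in the ring. Mcm3 (ENSMUSG00000041859.10, chr1:20802968-20820312, minus strand) stood at 37.4, 36.5 and 36.1 TPM in mutants, against 38.5, 45.4 and 41.5 TPM in controls. The mutants lay close together (36.7 ± 0.634 TPM, SD, n = 3), the controls were wider (41.8 ± 3.46 TPM, SD, n = 3), and the log2 difference was −0.18 (SE 0.09, limma adjusted p = 0.34). The coding isoform Mcm3-201 overlapped between groups (log2 difference −0.09). Much of the gene's gap lay in the short isoform Mcm3-205, which averaged 5.71 TPM in mutants and 9.53 TPM in controls.

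The other 4 ring genes overlapped between groups. Mcm5, which with Mcm2 forms the gate through which the ring opens onto DNA, read 17.9, 19.9 and 22.1 TPM in mutants, against 25.1, 21.3 and 24.6 TPM in controls. Only mutant 3 reached into the control range, and the log2 difference was −0.24 (SE 0.11, limma adjusted p = 0.33). Mcm2, whose tail also binds histones H3 and H4, read 36.0, 32.3 and 36.1 TPM in mutants, against 32.2, 41.3 and 38.8 TPM in controls. Control 1 was the lowest of all 6 libraries, and the log2 difference was −0.10 (SE 0.12, limma adjusted p = 0.68), with −0.20 to −0.022 when 1 library was left out. Mcm6 read 37.8, 41.5 and 40.2 TPM in mutants and 37.0, 45.2 and 45.7 TPM in controls. Here too control 1 was the lowest library, at a log2 difference of −0.09 (SE 0.11, limma adjusted p = 0.67) and a range of −0.19 to −0.039 with 1 library left out. Mcm4, a main substrate of the Cdc7 kinase, read 18.5, 20.4 and 18.3 TPM in mutants and 17.3, 22.0 and 19.6 TPM in controls. The mutants lay inside the control range, the log2 difference was −0.04 (SE 0.11, 95% interval −0.30 to 0.22, limma adjusted p = 0.88), and it was 0.04 without control replicate 2.

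Promoters of 3 of these ring genes are shown because MCM genes are known targets of E2F factors, which drive genes of S phase, and all 6 ring genes had a difference below 0. RefSeq promoters of GRCm38.p6 covered 6 of the 10 genes in 7 windows (Mcm2, Mcm3, Mcm5, Mcm6, Mcm7 with 2 starts, and Gins3). Mcm4, Gins1, Gins2 and Gins4 were not matched. The 250 bases before each start were searched on both strands for E2F octamers (TTTCCCGC, TTTCGCGC, TTTGCCGC and TTTGGCGC), the CHR element of cell cycle genes (TTTGAA) and the CCAAT box. The sequences below run 5′ to 3′ on the gene's strand, at chr8:75109259-75109508 (plus strand) for Mcm5, chr1:128359706-128359955 (minus strand) for Mcm6 and chr1:20820313-20820562 (minus strand) for Mcm3, with E2F octamers in capitals.
Mcm5: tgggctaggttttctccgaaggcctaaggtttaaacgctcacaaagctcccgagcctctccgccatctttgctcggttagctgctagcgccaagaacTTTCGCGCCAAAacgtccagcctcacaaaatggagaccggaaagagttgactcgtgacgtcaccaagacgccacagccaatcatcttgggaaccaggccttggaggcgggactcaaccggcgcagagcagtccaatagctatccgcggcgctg
Mcm6: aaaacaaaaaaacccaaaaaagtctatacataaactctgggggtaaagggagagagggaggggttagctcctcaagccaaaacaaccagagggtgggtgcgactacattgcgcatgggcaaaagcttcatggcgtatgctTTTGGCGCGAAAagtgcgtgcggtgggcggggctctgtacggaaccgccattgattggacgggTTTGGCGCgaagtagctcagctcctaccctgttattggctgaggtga
Mcm3: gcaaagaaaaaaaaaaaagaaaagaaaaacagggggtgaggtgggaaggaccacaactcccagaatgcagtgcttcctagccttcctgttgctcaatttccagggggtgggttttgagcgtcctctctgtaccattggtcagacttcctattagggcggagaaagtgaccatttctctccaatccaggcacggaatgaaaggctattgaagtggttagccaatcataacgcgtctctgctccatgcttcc

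The E2F octamers stood in 4 of the 6 genes (Mcm5, Mcm6, Mcm7 and Gins3), against 1.86% of 32851 RefSeq promoter windows of the same length and 2.36% of those of protein-coding genes. Mcm5 held 2 matches, on opposite strands and overlapping each other, that begin 153 and 149 bases before the start. Mcm6 held 3, of which those at 110 and 106 bases overlap each other and the third lies at 47 bases. Mcm7 held 1 at 165 bases before the start of 1 window and Gins3 held 1 at 41 bases. No octamer matched in the 250 bases of Mcm2 or Mcm3, and Mcm3 held 2 in the 50 bases after its start, a stretch added to the search after the first result was seen. The CCAAT box stood in all 7 windows (33.8% of all windows), and TTTGAA in Mcm2 and Gins3 (16.0% of all windows). None of the octamer matches overlapped another motif searched. Of the genes whose groups did not overlap, Mcm7 and Gins3 held an octamer before the start, Mcm3 did not, and Gins1 had no window. Mcm5 and Mcm6, with 2 and 3 matches, overlapped between groups. A match is a stretch of letters, not a measured site.

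Among the GINS genes, Gins1 had the largest difference of the 10 and Gins4 the only positive one on the deposited scale. Gins1, known as Psf1 in yeast, links the CMG helicase to DNA polymerase epsilon. Gins1 (ENSMUSG00000027454.10, chr2:150905400-150931280, plus strand) stood at 6.66, 6.30 and 4.76 TPM in mutants, against 10.03, 7.07 and 8.25 TPM in controls. Every mutant was below every control, with means of 5.91 ± 1.01 TPM in mutants and 8.45 ± 1.49 TPM in controls (SD, n = 3 each), 30.1% lower. The log2 difference of −0.45 (SE 0.16, 95% interval −0.83 to −0.07) did not pass over all genes (limma, adjusted p = 0.29) and ran from −0.58 to −0.33 over 13 alternative settings. The only coding isoform of Gins1, Gins1-201, overlapped between groups (log2 difference −0.34, limma adjusted p = 0.47). It read 4.49, 5.71 and 4.52 TPM in mutants and 7.94, 5.33 and 6.29 TPM in controls. The rest of the gene's TPM lies in isoforms annotated as processed transcripts. Gins3 (Psf3 in yeast; ENSMUSG00000031669.10, chr8:95633453-95645060, plus strand) was the least abundant member. It read 2.30, 3.03 and 2.61 TPM in mutants, against 3.28, 3.27 and 3.12 TPM in controls, with a gap between the groups that was small beside the spread of mutants (log2 difference −0.22, SE 0.12, limma adjusted p = 0.36).

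Gins2, the Psf2 subunit, read 8.36, 7.44 and 10.6 TPM in mutants, against 8.63, 10.7 and 11.9 TPM in controls. Mutant 3 lay among the controls, and the log2 difference was −0.22 (SE 0.16, limma adjusted p = 0.49). It was −0.12 without mutant replicate 2 and −0.13 without control replicate 3, but −0.35 without mutant replicate 3 and −0.33 without control replicate 1. Gins4, known as Sld5 in yeast, binds Gins1 in the assembled complex. Gins4 (ENSMUSG00000031546.6, chr8:23226616-23237659, minus strand) read 22.2, 22.1 and 22.2 TPM in mutants, against 18.5, 21.9 and 22.4 TPM in controls. The mutants were nearly equal and control 1 was the low library. Its log2 difference of 0.08 (SE 0.10, limma adjusted p = 0.66) became −0.03 and −0.05 after median-ratio and protein-coding scaling, so its sign depended on the scaling, and it was 0.0027 without control replicate 1.

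**Figure D2:**
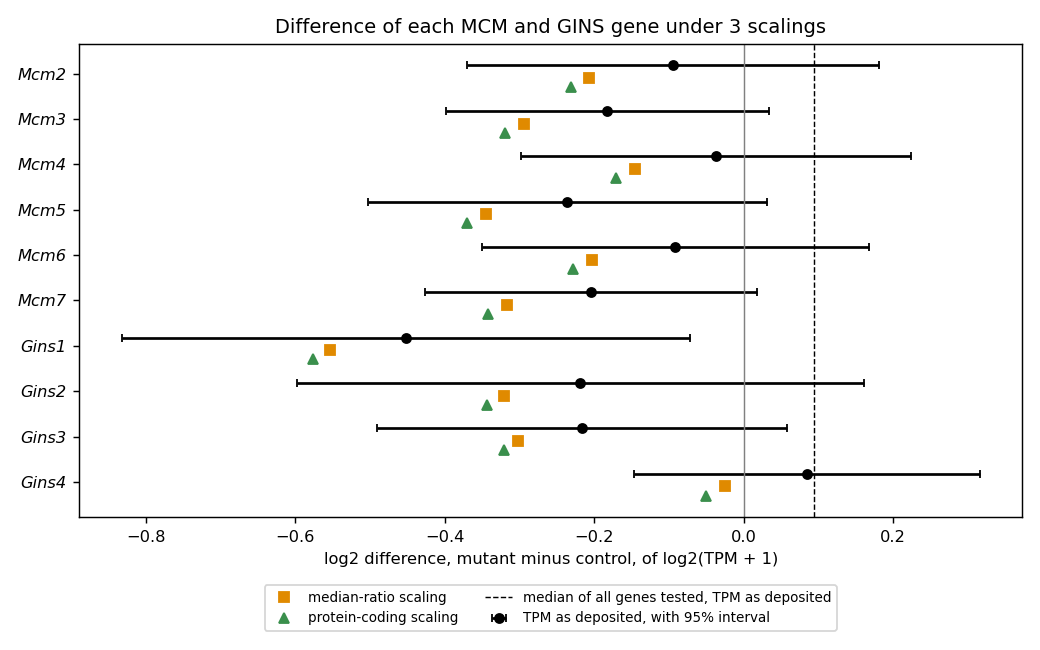
Difference in log2(TPM + 1), mutant minus control, for each MCM and GINS gene with the deposited TPM (black, with its 95% interval), after median-ratio scaling (orange squares) and after protein-coding scaling (green triangles). The interval excludes 0 for Gins1 alone, both scalings move all 10 genes to the left, and Gins4 crosses 0; the dashed line marks the median of all genes at 0.09.

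GINS assembles with 1 copy of each of its proteins, while the gene totals of their RNAs were far from equal. These totals include isoforms that are not coding. The coding Gins2-201 took 35.3% of its gene in mutants and 33.3% in controls, while Gins4 has 1 isoform, a coding one. The summed GINS level was 39.6, 38.9 and 40.2 TPM in mutants, against 40.5, 43.0 and 45.6 TPM in controls, with every mutant below every control by a narrow margin. Gins4 made up 56.2%, 56.8% and 55.2% of that sum in mutants, against 45.8%, 51.0% and 49.1% in controls, and these shares, which no library scaling changes, did not overlap. Gins1 made up 15.0% ± 2.73 of the sum in mutants and 19.8% ± 4.41 in controls (SD, n = 3 each), with overlap. The shares of Gins2 (19.2% to 26.5% in mutants, 21.3% to 26.0% in controls) and Gins3 (5.82% to 7.79% in mutants, 6.85% to 8.10% in controls) overlapped as well. On the log2 scale the ratio of Gins1 to Gins4 was −1.74, −1.81 and −2.22 in mutants, against −0.89, −1.63 and −1.44 in controls. It was 1 of 5 ratios formed. Gins3 to Gins4 and Mcm3 to Mcm4 were also lower in mutants without overlap. Gins2 to Gins4 and Mcm7 to Mcm4 overlapped. These shares and ratios were formed after the values had been seen and carry no test.

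The summed MCM level was 199.7, 208 and 211 TPM in mutants, against 209.7, 243 and 236 TPM in controls. Control 1 lay inside the mutant range on the deposited scale, and the sums did not overlap after either scaling. The share of Mcm7 in the MCM sum was 26.1%, 27.5% and 27.5% in mutants, against 28.4%, 27.9% and 28.0% in controls, and each of the other 5 shares overlapped between groups. The MCM sum exceeded the GINS sum by a like factor in both groups, 5.05, 5.35 and 5.24 in mutants and 5.18, 5.65 and 5.18 in controls.

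**Figure D3:**
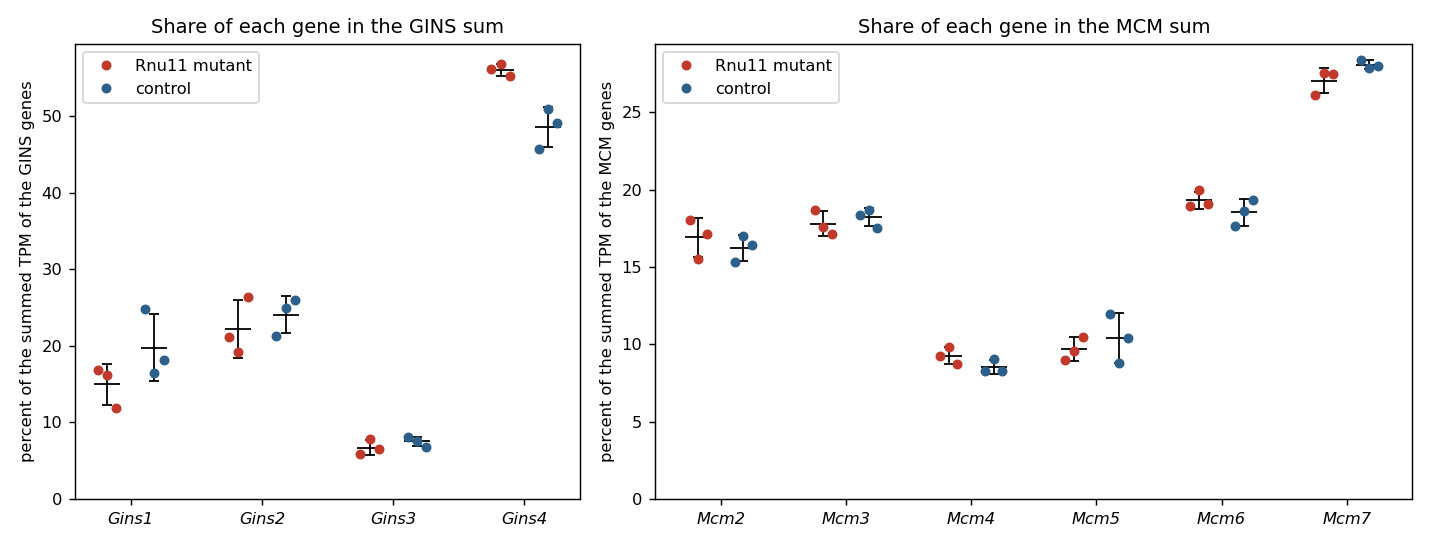
Share of each gene in the summed TPM of the GINS genes (left) and of the MCM genes (right), in percent, with mutants in red left of controls in blue, 1 point per library and black marks for the mean and SD (n = 3 per group). Gins4 lies at 55.2% to 56.8% in mutants, above the 45.8% to 51.0% of controls, and Mcm7 lies slightly lower in mutants.

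The members differed more among themselves than between the groups, with Mcm7 on top. Over all 6 libraries Mcm7 averaged 60.1 ± 5.82 TPM (SD, n = 6) and its lowest library, 52.2 TPM, was above the highest of every other member. Mcm6 (41.2 ± 3.67 TPM), Mcm3 (39.2 ± 3.60 TPM) and Mcm2 (36.1 ± 3.58 TPM) followed, with overlapping ranges between neighbours. A gap without overlap separated Mcm2 from Mcm5 (21.8 ± 2.76 TPM), Gins4 (21.6 ± 1.49 TPM) and Mcm4 (19.3 ± 1.68 TPM), which overlapped one another in turn. A further gap led to Gins2 (9.61 ± 1.70 TPM) and Gins1 (7.18 ± 1.80 TPM), which overlapped, and Gins3 (2.93 ± 0.395 TPM) lay under all of them. Gins4 ranked with the middle ring genes rather than with its partners. Relative to all tested genes, the members ranged from the 93.9th percentile of mean TPM for Mcm7 to the 26.7th for Gins3. These ranks use gene totals over all isoforms. The longest isoform of Mcm7, Mcm7-201, took 53.3% of its gene in mutants and 55.1% in controls. It read 28.3, 29.6 and 31.4 TPM in mutants and 33.0, 37.1 and 36.4 TPM in controls. Mcm6-201 overlapped it, at 30.9, 31.2 and 30.4 TPM in mutants and 29.2, 37.5 and 33.2 TPM in controls.

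The isoforms of these genes gave no call either. Of 45 listed isoforms 29 had a mean of at least 1 TPM, and none was called, while 6 isoforms of all 44197 tested (0.0136%) were (limma, adjusted p of 0.32 to 1.00 for the 29). By unadjusted p under 0.05, 5 were lower and 1 was higher, against 3.18% and 8.06% of all isoforms. In 22 of the 29 the difference was below 0, against 37.0% of all isoforms. Every mutant lay below every control in 6 (Mcm2-202, Mcm2-204, Mcm3-205, Mcm5-202, Mcm7-201 and Gins3-201; 5.17% of all isoforms), and above in 1 (Mcm3-203; 11.6%). Gins4 has a single listed isoform, so its isoform value is its gene value.

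Isoforms annotated as retaining an intron, called intron-retaining here, made up 4 of those 6. None of the 4 holds a whole intron. Of the intron concerned, Mcm3-205 holds 7.3%, Mcm2-202 5.7%, Mcm2-204 10.3% and Mcm5-202 22.0%. The isoforms that hold a whole intron (Mcm2-205, Mcm3-202, Mcm3-204, Mcm6-203, Mcm7-205 and Gins2-203) overlapped between groups. Of these, Mcm2-205, Mcm3-202 and Gins2-203 averaged under 1 TPM. On the scale of log2(TPM + 1), the largest difference among the tested isoforms was in Mcm3-205 (chr1:20803165-20804933, minus strand). It read 6.07, 6.10 and 4.98 TPM in mutants, against 9.85, 9.94 and 8.80 TPM in controls. The groups were far apart beside their spread (log2 difference −0.65, SE 0.12), but the adjusted p was 0.32 (limma, over all isoforms). The rank depended on the setting. Over the alternative settings Mcm3-205 reached −0.78, against −0.98 for Mcm5-202 and −0.94 for Mcm2-204, which lie nearer to 1 TPM. The coding isoform Mcm3-201 read 27.4, 26.4 and 27.3 TPM in mutants and 25.3, 31.9 and 29.5 TPM in controls, with overlap (log2 difference −0.09, limma adjusted p = 0.78). Mcm3-205 took 15.6% ± 1.57 of the gene's TPM in mutants and 22.9% ± 2.34 in controls (SD, n = 3 each). Another intron-retaining isoform of the gene, Mcm3-203, went the other way, at 1.97, 2.63 and 2.16 TPM in mutants and 1.76, 1.33 and 1.52 TPM in controls (log2 difference 0.36, limma adjusted p = 0.44).

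Mcm3-205 is shown by the bases that set it apart, because its level rests on them. Of its 607 bases 95.7% also belong to Mcm3-201, and the remaining 26 are the end of intron 15 of 16 (chr1:20804908-20804933, minus strand), read 5′ to 3′ from the GENCODE M21 transcript.
Mcm3-205 intronic bases: cccctgcaaacgctgtctccctgaag
With so few bases of its own, its TPM depends on how the authors' quantifier shared reads among the isoforms of the gene. Mcm3-203, with 1 exon at chr1:20803006-20803721, also overlaps Mcm3-205. The opposite differences of Mcm3-203 and Mcm3-205 thus rest in part on shared bases.

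Mcm2-202 read 3.74, 3.66 and 3.08 TPM in mutants, against 4.65, 4.92 and 4.74 TPM in controls (log2 difference −0.36, limma adjusted p = 0.43). Mcm2-204, which holds the start of the same intron 2 of which Mcm2-202 holds the end, read 1.17, 0.449 and 0.848 TPM in mutants, against 1.43, 1.24 and 2.20 TPM in controls (log2 difference −0.53, limma adjusted p = 0.44). Mcm5-202 read 0.911, 0.767 and 0.744 TPM in mutants, against 1.75, 1.65 and 1.65 TPM in controls (log2 difference −0.57, limma adjusted p = 0.43). In each of these the mutants were lower without overlap, while the main coding isoforms Mcm2-201 and Mcm5-205 overlapped between groups. Over the 12 tested intron-retaining isoforms of the members, 10 were lower and the median log2 difference was −0.28, against 0.05 over all 11535 such isoforms, of which 39.3% were lower. In 4 of the 12 every mutant was below every control, against 4.68% of such isoforms.

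Shares of the gene were summed by annotated type. The sums thus include isoforms that hold only part of an intron. They leave out Mcm6-203, annotated as coding, which holds intron 16 whole. As a share of the gene, the intron-retaining isoforms of Mcm2 took 16.6%, 15.4% and 13.1% in mutants, against 21.6%, 17.97% and 20.5% in controls. Those of Mcm3 took 26.7%, 27.7% and 24.5% in mutants, against 34.5%, 29.9% and 28.9% in controls. Those of Mcm5 took 8.49%, 7.67% and 5.78% in mutants, against 12.3%, 10.2% and 10.7% in controls. In these 3 genes every mutant was below every control, and in the other 3 with such isoforms (Mcm6, Mcm7 and Gins2) the groups overlapped. The pattern held for 7.22% of 6121 genes with such isoforms. Among single isoform shares 25 were tested and none was called, against 0.0112% of all 35634. By unadjusted p under 0.05, Mcm3-205 and Mcm5-202 were lower and Mcm7-204 was higher (limma, adjusted p of 0.81 to 0.86), in a test that called 3.01% lower and 2.77% higher at that level. Mcm7-204, a coding isoform, took 7.72% ± 1.60 of its gene in mutants and 4.47% ± 0.980 in controls (SD, n = 3 each).

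**Figure D4:**
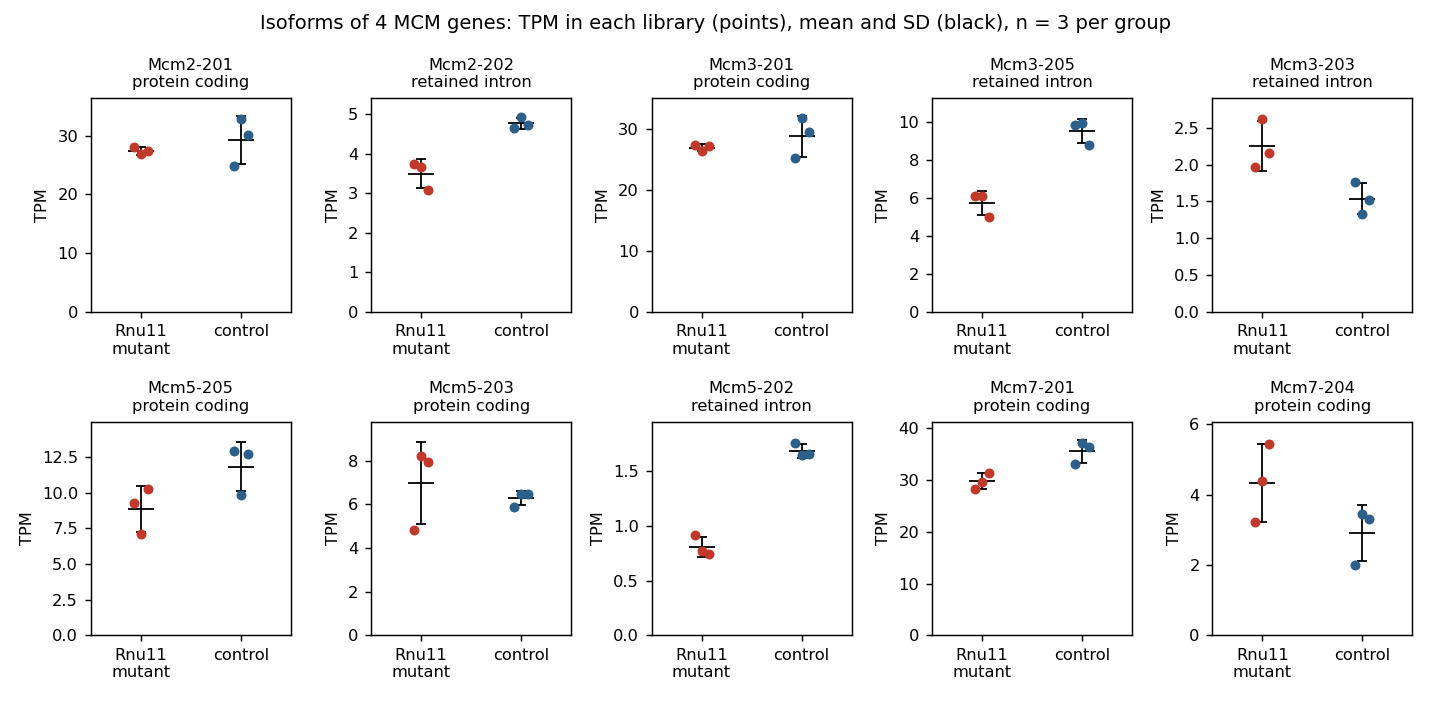
TPM of 10 isoforms of Mcm2, Mcm3, Mcm5 and Mcm7 in each library, with the annotated type above each panel, mutants in red left of controls in blue, and black marks for the mean and SD (n = 3 per group). Mcm2-202, Mcm3-205 and Mcm5-202, which are annotated as intron-retaining but hold only part of an intron, are lower in mutants without overlap. Mcm3-203 is higher, and the coding isoforms Mcm2-201 and Mcm3-201 overlap.

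Intron starts are shown because U11 pairs with the start of minor introns, which there read G or A and then TATCCTT. Of 127 annotated introns of the 10 genes, 6 could be read whole from a transcript that retains them, in 5 genes. All 6 began with GT and ended in AG, and none had the start of a minor intron with at most 1 mismatch in its last 6 letters. The starts alone of Mcm2 intron 2 (GTAGGCTG, in Mcm2-204) and Mcm5 intron 15 (GTGAGTAA, in Mcm5-202) could also be read. Neither reads as the start of a minor intron given above. The remaining introns were not analysed here. Below are the first bases of the 6 introns read whole, 5′ to 3′. The 5′ splice site is in capitals, and introns are numbered along the isoform 201 of each gene. They lie at chr8:120588840-120588925 (Gins2), chr6:88889206-88889787 and chr6:88889923-88891672 (Mcm2 introns 7 and 6), chr1:20805340-20805796 (Mcm3), chr1:128332052-128333516 (Mcm6) and chr5:138169474-138169559 (Mcm7), all on the minus strand.
Gins2 intron 1: GTGAGCCAgggcggtacggg
Mcm2 intron 7: GTGAGTGActgttagaaact
Mcm2 intron 6: GTGAGTAAcccagacctgcc
Mcm3 intron 14: GTACCGTGgggaactgagaa
Mcm6 intron 16: GTAAGTGTccactgcctggg
Mcm7 intron 3: GTAGGTGGctggtttgtttc

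No gene of the lists that act beside the helicase passed the test. Among 10 genes that activate the helicase all were lower in mutants, none was called, and the median log2 difference was −0.21. In 4 of the 10 every mutant lay below every control. Among all genes, 5.77% had every mutant below every control and 33.6% were lower. Dbf4, the regulatory subunit of the kinase that starts the ring, stood at 24.0, 25.2 and 25.4 TPM in mutants, against 31.0, 32.1 and 30.2 TPM in controls (log2 difference −0.31, limma adjusted p = 0.29). Its kinase partner Cdc7 stood at 9.55, 9.61 and 10.7 TPM in mutants, against 14.1, 11.9 and 11.4 TPM in controls (−0.29, limma adjusted p = 0.29). Both were without overlap, as were Topbp1 (−0.25) and Ticrr (−0.26), which help to load Cdc45 and GINS; Ticrr was at −0.12 without mutant replicate 2. Donson, which delivers GINS to the ring, overlapped (−0.26), and was at −0.16 without mutant replicate 3 and −0.17 without control replicate 3. Of 11 licensing genes 8 were lower, with a median of −0.05 and none called. In 2 of the 11 every mutant lay below every control, and in 1 above, against 5.77% and 14.5% of all genes. Gmnn (−0.30), the inhibitor of the loading factor Cdt1, and Lrwd1 (−0.27), which binds the origin recognition complex, were without overlap, and Cdt1 (−0.16), Cdc6 (−0.11) and Orc2 (−0.10) overlapped. Cdt1 was at −0.075 without mutant replicate 2 and Orc2 at 0.02 without control replicate 2.

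At the fork, 16 of 24 genes were lower, none was called and the median was −0.07. In 8 of the 24 every mutant lay below every control. Among all genes, that held for 5.77%, and 33.6% were lower. Tipin (−0.27) of the fork protection complex, the polymerase delta subunit Pold1 (−0.26), the clamp loader subunit Rfc4 (−0.24), the ligase Lig1 (−0.23) and the sliding clamp Pcna (−0.18) were each without overlap. Pcna read 61.9, 65.1 and 64.5 TPM in mutants, against 68.2, 75.5 and 73.8 TPM in controls. Of the 4 genes of polymerase alpha-primase, which makes the primers, Pola2 (−0.13) and Prim2 (−0.13) were lower and Pola1 (0.04) and Prim1 (0.14) higher, all with overlap, and Pola1 was at −0.07 and −0.09 after the 2 scalings and at −0.00 and −0.05 without mutant replicate 1 or control replicate 1. Of 11 genes of nucleotide supply and chromatin assembly 8 were lower (median −0.14, none called), and in 6 every mutant lay below every control. Among those 6 were Uhrf1 (−0.37), Asf1b (−0.35), Rrm2 (−0.28), Rrm1 (−0.19) and Chaf1a (−0.18).

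The MCM paralogs of meiosis and repair are separate from the ring. Mcm8 (−0.17) was without overlap, Mcmdc2 (−0.23) overlapped, and Mcm9 (0.09), the helicase partner of Mcm8, overlapped and turned to −0.01 and −0.04 after the 2 scalings. Of 13 E2F and pocket protein genes 6 were lower and 7 higher (median 0.01, none called). In 5 of the 13 every mutant lay below every control, and in 1 above, against 5.77% and 14.5% of all genes. E2f1, an activator of S phase genes, read 7.80, 7.12 and 7.04 TPM in mutants, against 8.82, 10.6 and 9.99 TPM in controls (log2 difference −0.37, limma adjusted p = 0.29). E2f7 (−0.34) and E2f5 (−0.33) were also below every control. The pocket proteins Rbl1 (−0.45) and Rbl2 (0.32), which repress E2F targets, differed in opposite directions, each without overlap. The 11 genes of dividing cells were all lower, with a median of −0.23 and none called. In 5 of the 11 every mutant lay below every control, against 5.77% of all genes. Ccne1 (−0.48), a cyclin of the entry into S phase, Bub1 (−0.35), Foxm1 (−0.24), Aurkb (−0.23) and Top2a (−0.23) had the smallest p-values of that list, and each was without overlap. By limma without adjustment, at a p under 0.05, 3 helicase activation genes, 2 licensing genes, 4 fork genes, 3 of nucleotide supply and chromatin assembly, 2 of dividing cells and 4 E2F or pocket protein genes were lower, and 1, Rbl2, was higher. At that level 3.98% of all genes were lower and 12.1% higher, and 8.47% and 9.87% were lower after the 2 scalings. After both scalings licensing genes were lower in 11 of 11, fork genes in 22 of 24 and nucleotide and chromatin genes in 9 of 11. E2F and pocket protein genes were lower in 9 of 13 after median-ratio scaling (median −0.10) and 10 of 13 after protein-coding scaling (median −0.12). Of all genes, 33.6% were lower as deposited, and 50.6% and 54.5% after the 2 scalings.

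**Figure D5:**
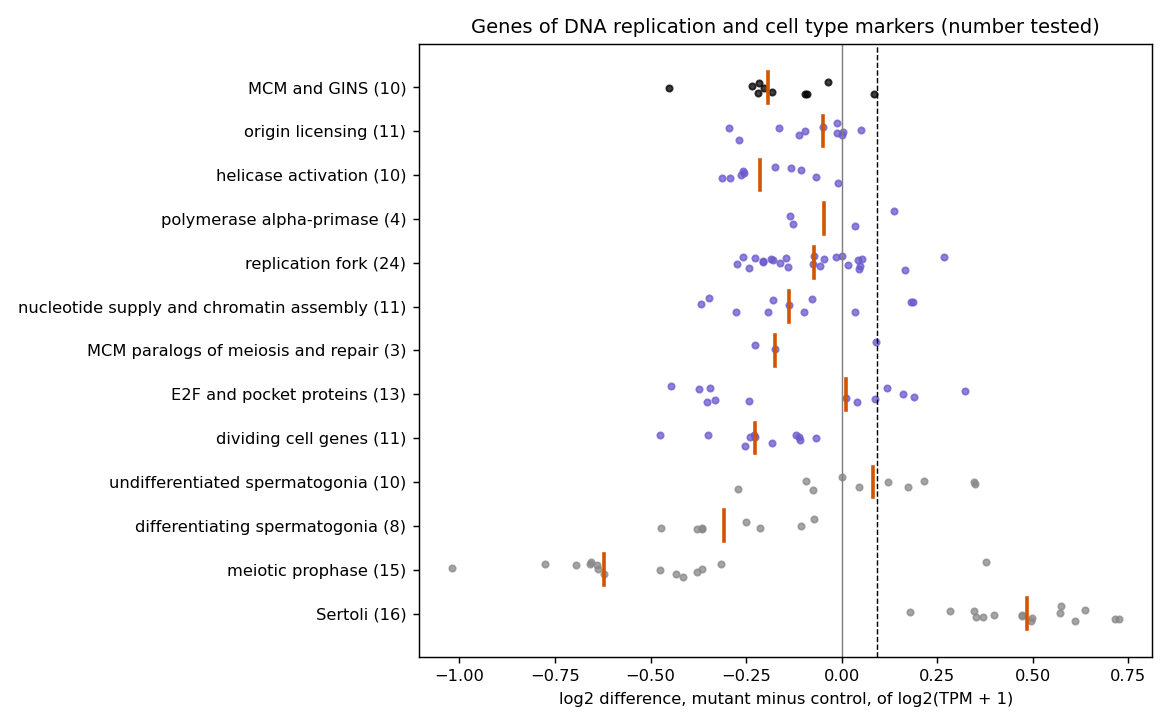
Difference in log2(TPM + 1), mutant minus control, for each tested gene (points) of the MCM and GINS genes (black), of lists of DNA replication and dividing cells (purple) and of cell type markers (grey), with the number of genes tested in brackets. Orange bars are list medians and the dashed line is the median of all genes at 0.09; members, helicase activation and dividing cell genes have medians of −0.19 to −0.23, meiotic prophase genes −0.62 and Sertoli genes 0.48.

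Cell type marker lists were counted and summed in the same libraries. Of all genes, 33.6% were lower as deposited, and 50.6% and 54.5% after the 2 scalings. Fewer cells of a type and less RNA per cell cannot be told apart in whole testes. All 8 differentiating spermatogonia genes were lower (median −0.31), with sums of 281 to 316 TPM in mutants and 365 to 383 TPM in controls. Of 15 meiotic prophase genes 14 were lower (median −0.62), with sums of 342 to 429.6 TPM in mutants and 484 to 595 TPM in controls. Undifferentiated spermatogonia genes had 3 of 10 lower (median 0.08, but −0.02 and −0.05 after the 2 scalings), with sums of 77.1 to 82.3 TPM in mutants and 68.5 to 81.9 TPM in controls. All 16 Sertoli cell genes were higher (median 0.48), with sums of 2616 to 3349 TPM in mutants and 1894 to 2167 TPM in controls, and all 8 Leydig cell genes (median 0.88) and all 6 macrophage genes (median 0.43) were higher as well. Those directions held under both scalings, as did the 8 of 8 pachytene genes that were lower (median −0.68), and peritubular myoid and endothelial genes were mixed (2 of 5 and 1 of 5 lower). No gene of these lists was called by limma or listed at 0 in every library. At an unadjusted p under 0.05, 5 differentiating spermatogonia genes, 13 meiotic prophase genes and 3 pachytene genes were lower, and 1 undifferentiated spermatogonia gene, 13 Sertoli, 6 Leydig and 2 macrophage genes were higher, against 3.98% of all genes lower and 12.1% higher. The part of cell composition in the values of the MCM and GINS genes was not tested. Without control replicate 2, 8 of the 10 members were lower, with a median of −0.15.

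The genes whose levels followed the members most closely over the 6 libraries included other genes of DNA replication. Among 9314 protein-coding genes of at least 5 TPM, the highest Pearson correlations with the mean log2 level of the members were those of Pold3 (0.994), Pcna (0.988), Cenpq (0.987), Polr2e (0.978) and Cdr2 (0.968). Pold3 is a subunit of polymerase delta, Cenpq a centromere protein and Polr2e a subunit of RNA polymerases. Pold3 read 38.2, 39.3 and 38.7 TPM in mutants, against 40.8, 44.5 and 45.2 TPM in controls, without overlap. The 6 points share their library and its scaling, and by Spearman correlation 5 other genes ranked first, so this order depended on the measure. Mcm7 also holds the microRNA genes Mir25, Mir93 and Mir106b on its strand, and each was listed at 0 TPM in all 6 libraries.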

How the data were processed

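Whole testes of 3 Rnu11-cKO and 3 control mice were profiled, and the labels gave each library's group and number. Each library was counted as 1 mouse, since the design text speaks of animals. Per the labels' protocols, libraries were rRNA-depleted and stranded. The submitters' processing notes name HISAT2 and the build GRCm38; no source used here gives the quantifier or its annotation. As deposited, the files hold TPM per gene and per isoform, with no counts, so no counting interval is given. The authors' table of group means and log2 fold changes, as deposited, was used to check the group means: 55353 of 55353 control means equal those of the 3 libraries within 1e-06 TPM.

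Genes and isoforms with a mean of at least 1 TPM were compared in R 4.3.3 with limma 3.58.1 (lmFit, then eBayes with trend) on values of log2(TPM + 1). Tests were two-sided, with p-values adjusted by Benjamini-Hochberg over all features and a threshold of 0.05. This scale understates differences of genes near 1 TPM. Isoform shares were tested without trend as log2 of isoform TPM plus 0.1 over that of the gene's other isoforms plus 0.1, for genes of at least 5 TPM and shares of 5% to 95%. Exact permutation tests of 3 against 3 cannot go below p = 0.1 and are not reported. The members and gene lists were chosen with earlier results of these data known. Named are the members, Rnu11, each list's 5 smallest p-values (all genes of lists of up to 5), member isoforms of at least 1 TPM or with a share tested, and the 5 genes most like the members; ratios, sums and the microRNA genes were picked after values were seen. GENCODE M21 named 53388 gene symbols and 141429 isoforms. Promoters are RefSeq's. The protein comparison planned was not run.

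Alternatives were another pseudocount, filter or scaling, no trend, a replicate block, other share limits, Spearman correlation and each library left out in turn. On simulated data, changes of 1 and of 2 log2 units were recovered in 82% and 97% of cases by the gene fit (17959 genes), 42% and 93% by the isoform fit (44197 isoforms) and 0% and 50% by the share fit (35634 isoforms). Smaller changes were not simulated. These rates therefore do not apply to differences of the size seen in the member genes (−0.45 to 0.08). Python 3.11.15, pandas 2.3.3 and matplotlib 3.10.9 were used for the rest.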

Additional observations from a re-analysis of the deposited data

How the results depend on the processing

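No member gene, isoform or share was called under any alternative run. Of 1193 recomputations of 102 single gene, isoform and share values, 1138 kept direction and side of the threshold, 54 turned direction and 1 newly passed (Rnu11, log2 difference −1.53 without mutant replicate 2). The number of genes called, 5 as reported, was 8 with a pseudocount of 0.1 TPM, 0 with no filter, 3 with a filter of 5 TPM, with either scaling or with no trend, and 2 to 8 with 1 library left out. Isoforms called, 6 as reported, were 11 with the smaller pseudocount and 2 to 11 with 1 library left out, and shares called, 4 as reported, were 1 with shares of 10% to 90% and 2 to 9. With a replicate block all 3 counts were 0. Same-numbered libraries correlated at −0.07, 0.03 and 0.08 in their deviations from the group means, and other pairs at −0.16 to 0.12. With 3 libraries per group, these values cannot show whether the numbers pair the samples. The MCM sum differed by −23.5 TPM, mutant minus control, and by −44.0 TPM after protein-coding scaling; the GINS sum by −3.46 TPM, and by −6.62 and −7.37 TPM after median-ratio and protein-coding scaling. By Spearman correlation 0 of the 5 genes most like the members remained.

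After median-ratio and protein-coding scaling Gins4 and its isoform stood at −0.025 and −0.050, Pola1 at −0.066 and −0.089, Mcm9 at −0.015 and −0.038 and Mcm7-209 at −0.034 and −0.046, and Mcm5-203 at −0.015 after the second; with a share pseudocount of 1 TPM the Gins1-203 share stood at 0.10. With 1 library left out, log2 differences crossed 0 for Mcm4 (−0.12 to 0.045), Orc2 (−0.17 to 0.019), Pola1 (−0.045 to 0.087), Mcm2-201 (−0.19 to 0.0045), Mcm4-201 (−0.11 to 0.060), Mcm5-203 (−0.010 to 0.32), Mcm6-204 (−0.11 to 0.48), Mcm6-202 (−0.28 to 0.27), Mcm7-202 (−0.28 to 0.0063), Mcm7-206 (−0.061 to 0.18) and Mcm7-209 (−0.55 to 0.56). Shares did so for Gins1-204 (−0.58 to 0.81), Gins2-204 (−0.51 to 0.0094), Gins2-201 (−0.11 to 0.35), Gins2-203 (−0.24 to 0.54), Mcm2-201 (−0.10 to 0.23), Mcm5-201 (−0.019 to 0.20), Mcm6-201 (−0.29 to 0.15), Mcm6-204 (−0.033 to 0.71), Mcm6-202 (−0.16 to 0.44), Mcm7-205 (−0.18 to 0.20) and Mcm7-202 (−0.17 to 0.28). The cause was not tested. Of 48 named genes, 15 moved by over 1.5 times with 1 library left out: Mcm2, Mcm4, Mcm6, Gins2, Gins4, Ticrr, Donson, Cdt1, Orc2, Pola1, Cdc6 (−0.20 to −0.059), Pola2 (−0.20 to −0.069), Rrm1 (−0.23 to −0.12), Mcm9 (0.0035 to 0.18) and Mcmdc2 (−0.39 to −0.14). A filter of 5 TPM leaves Gins3 out. Without depth, the precision of low values such as those of Gins3 is unknown.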
